A study of Mus musculus with 8 samples.

Results

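The 10 genes described here encode metalloproteases and their inhibitors, and were taken by symbol from a count table of 21240 mouse genes. They are, with their Entrez IDs from the table, the collagenase Mmp13 (17386), the stromelysins Mmp3 (17392) and Mmp10 (17384), the membrane-anchored Mmp14 (17387), the gelatinases Mmp2 (17390) and Mmp9 (17395), the membrane protease Adam8 (11501), and the tissue inhibitors of metalloproteases Timp1 (21857), Timp2 (21858) and Timp3 (21859). RNA-seq was made from NMuMG cells, a line of normal mouse mammary gland epithelium that the labels call wild type. Its 4 groups were BRM014 for 30 h, DMSO for 30 h, BRM014 for 6 h and DMSO for 6 h, with 2 libraries each that are labelled as biological replicates. BRM014 is a small-molecule inhibitor of BRM and BRG1 (genes Smarca2 and Smarca4), the ATPases that drive the chromatin remodeling complex SWI/SNF, and DMSO is its solvent. Its dose is not given in the sources used here. All cells were of the same line grown with serum and insulin, so the values describe 1 line in culture with no stroma beside it. The labels do not say whether the replicates came from separate cultures, so a p-value measures only the spread between these libraries, which may be technical.

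Matrix metalloproteases are zinc enzymes that cut collagens, proteoglycans, growth factors and other proteins outside the cell. They are made as inactive precursors, and removal of the propeptide by another protease turns them on. TIMPs bind the active enzymes and block them, so the balance of both families sets how much matrix is cut. In the mammary gland this system is known for its part in ductal branching and in the remodeling of the gland after lactation. Transcription of several secreted MMP genes, Mmp13 and the stromelysins among them, is known to respond to AP-1, a dimer of Fos and Jun proteins that binds TGAGTCA.

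The promoters of Mmp13, Mmp3 and Mmp10 are printed because, as described below, these genes had the lowest BRM014 to DMSO ratios of the 8 that could be tested. They were also the only ones of the 8 genes with a promoter in the RefSeq table to hold the AP-1 motif. Each window runs from 250 bases before to 50 bases after the annotated start, on the plus strand of mouse chromosome 9 in GRCm38.p6, with the AP-1 motif in capitals on whichever strand it lies. Mmp13 is at chr9:7272264-7272563, Mmp3 at chr9:7445572-7445871 and Mmp10 at chr9:7502092-7502391.
Mmp13: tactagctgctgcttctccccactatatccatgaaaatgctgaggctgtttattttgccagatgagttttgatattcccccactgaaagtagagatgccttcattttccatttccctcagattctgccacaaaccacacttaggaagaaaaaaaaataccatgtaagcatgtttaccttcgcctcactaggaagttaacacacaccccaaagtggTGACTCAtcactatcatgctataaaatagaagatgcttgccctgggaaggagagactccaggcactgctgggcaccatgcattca
Mmp3: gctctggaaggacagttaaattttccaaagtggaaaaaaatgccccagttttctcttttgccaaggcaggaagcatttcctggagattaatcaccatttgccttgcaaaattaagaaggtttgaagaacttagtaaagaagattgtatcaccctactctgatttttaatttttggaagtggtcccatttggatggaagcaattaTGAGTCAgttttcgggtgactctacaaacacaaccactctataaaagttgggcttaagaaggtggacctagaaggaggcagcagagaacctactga
Mmp10: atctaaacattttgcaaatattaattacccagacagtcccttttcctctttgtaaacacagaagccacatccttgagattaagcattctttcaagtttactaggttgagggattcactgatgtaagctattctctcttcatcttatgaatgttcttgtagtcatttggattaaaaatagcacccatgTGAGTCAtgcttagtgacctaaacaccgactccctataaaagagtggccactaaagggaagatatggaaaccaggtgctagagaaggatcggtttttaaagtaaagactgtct
The search used TGAGTCA on both strands. The motif began at -35 relative to the start in Mmp13, where it reads TGACTCA on the printed strand, at -46 in Mmp3 and at -63 in Mmp10. It was present in 5.20% of 32851 promoter windows of the same length. The TATA box letters TATAAA, searched on both strands, were found in the same 3 promoters and in 13.6% of all windows. The ETS core AGGAAG, also searched on both strands, was found in the windows of Mmp13, Mmp3, Mmp14, Timp1 and Timp3 and in 35.4% of all windows. The matches of the 3 motifs did not overlap each other. A match describes letters in a window and is not evidence of binding. The 3 printed genes lie in the same gene cluster, and a link between any motif and the effect of BRM014 was not tested. Mmp2 and Mmp9 had no entry in the table.

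Total counts per library were between 17859693 and 29955366, and 11835 genes (55.7%) had enough counts to be tested. Levels are given as CPM, the count of a gene scaled to a common library size. The correlation of log2 CPM between the replicates of a group was 0.990 to 0.994. A gene is called when its adjusted p, from edgeR's quasi-likelihood test with Benjamini-Hochberg adjustment over all tested genes, is under 0.05. Transcripts of the inhibited ATPases were not called at either time, with adjusted p of 0.565 at 30 h and 0.827 at 6 h for Smarca4 and of 0.347 at 30 h and 0.856 at 6 h for Smarca2. Of 8 epithelial markers only Cdh1, Krt8, Krt18 and Krt19 were detected at testable levels, while Epcam, Cldn3 and Cldn7 had 0 counts in every library and Cldn4 had 2 counts in all. The summed epithelial level was 7432 to 8665 CPM with BRM014 and 5552 to 5715 CPM with DMSO at 30 h, and 5539 to 6129 CPM with BRM014 and 5962 to 6316 CPM with DMSO at 6 h. The sum was higher with BRM014 at 30 h, when Cdh1 (0.67, adjusted p = 0.00145), Krt8 (0.67, adjusted p = 0.000179) and Krt18 (0.79, adjusted p = 7.16e-05) were called higher on the log2 scale. Krt19 went the other way and was called lower, with -0.87 at 30 h (adjusted p = 0.000304) and a 6 h value of -1.08 (adjusted p = 8.78e-05). Fibroblast markers, with Lum and Thy1 at 0, summed to 1.12 to 1.34 CPM with BRM014 and 2.19 to 2.77 CPM with DMSO at 30 h, and to 0.718 to 0.767 CPM with BRM014 and 1.12 to 1.61 CPM with DMSO at 6 h. Of the 2 tested, Col1a1, which passed the filter on low counts through its DMSO libraries alone, was lower at 30 h, with -2.06 (adjusted p = 0.00527), and also at 6 h, with -2.11 (adjusted p = 0.0362), the 6 h call ending in 5 of 16 alternatives and at -1.30 without DMSO replicate 2. Leukocyte markers, nearly all of it Cd68, with Adgre1 and Tyrobp at 0, summed to 2.38 to 2.41 CPM with BRM014 and 3.89 to 6.25 CPM with DMSO at 30 h, and to 3.85 to 5.63 CPM with BRM014 and 7.32 to 8.26 CPM with DMSO at 6 h. Cd68 was lower at 30 h (-1.12, adjusted p = 0.00773), which ended without DMSO replicate 1 (-0.74, adjusted p = 0.0871) and without BRM014 replicate 2 (adjusted p = 0.0671). Endothelial markers summed to at most 0.257 CPM and adipocyte markers to at most 0.0875 CPM. Pdgfra, the other tested fibroblast marker, was not called at either time. It averaged 0.696 CPM with BRM014, against 0.654 CPM with DMSO, after 30 h of treatment. Its means after 6 h were 0.393 CPM (BRM014) and 0.489 CPM (DMSO). The fibroblast and leukocyte sums were thus lower with BRM014, the fibroblast sum mainly through Col1a1, as were Mmp13, Mmp3 and Mmp10 below. The part of any of these marker levels in the results was not tested.

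**Figure D1:**
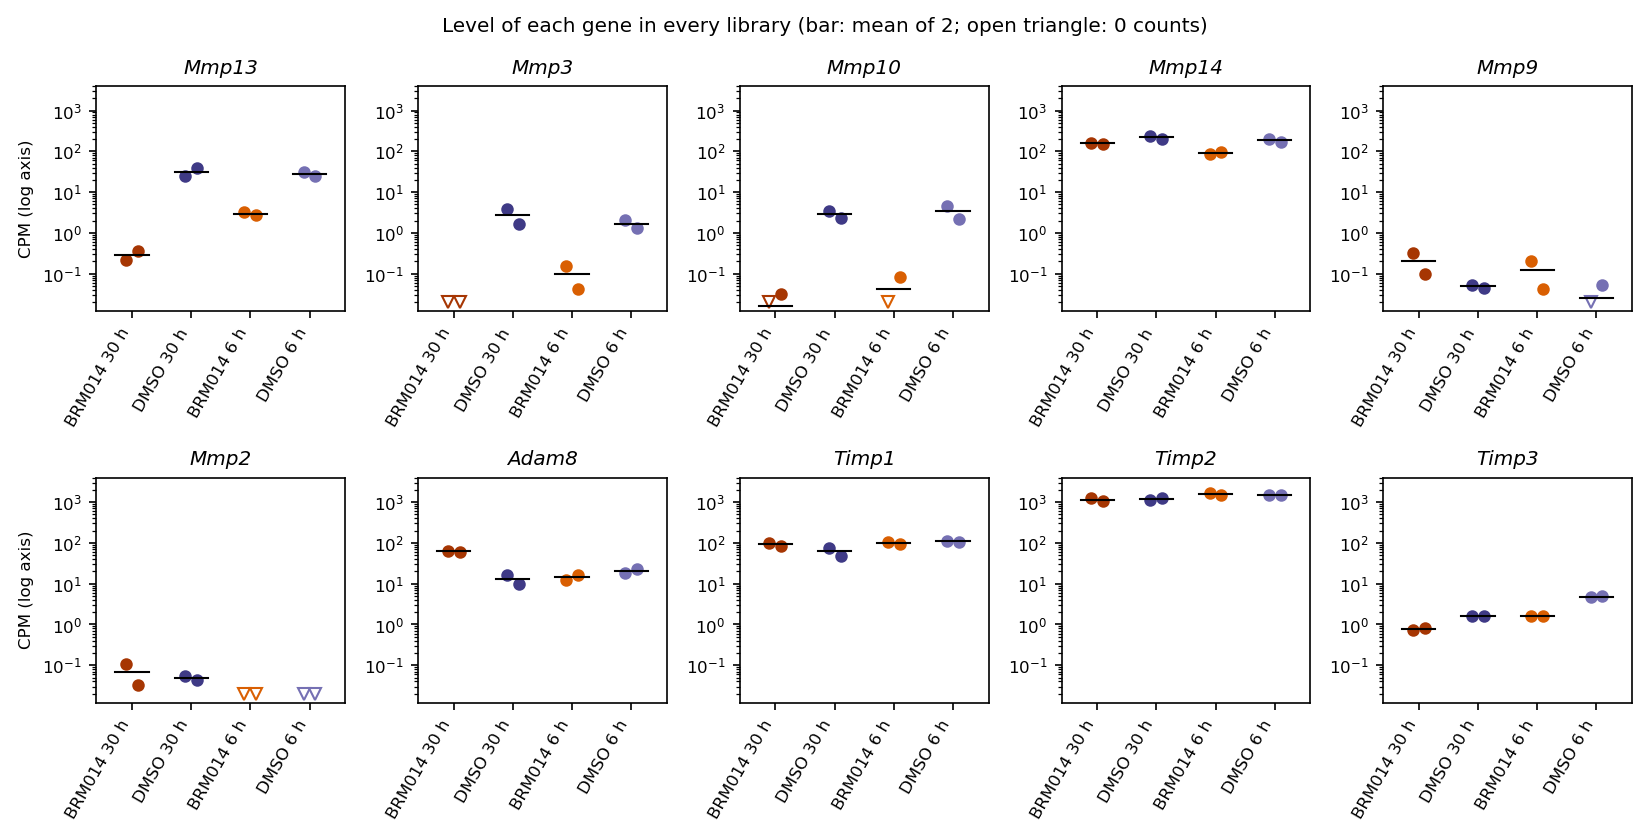
Level of each of the 10 genes in CPM (log axis) in the 8 libraries, with points for libraries, a bar for the mean of 2 and an open triangle for 0 counts. Mmp13, Mmp3 and Mmp10 are lower in every BRM014 library than in any DMSO library, while Adam8 is highest in the BRM014 libraries of 30 h.

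The comparisons of BRM014 with DMSO ask which genes respond to this inhibitor of the SWI/SNF ATPases at each time. Of the 10 genes, 8 were tested. With BRM014, 7 of these 8 were called at 30 h, 2 higher and 5 lower, against a background of 35.9% of all tested genes called (16.8% higher and 19.1% lower). At 6 h, 5 of the 8 were called, all lower, against a background of 23.8% (9.35% higher and 14.4% lower). The median log2 fold change of the 8 was -0.74 at 30 h and -1.34 at 6 h, against -0.0046 at 30 h and -0.01 at 6 h over all tested genes. Mmp3 and Mmp10 passed the filter on low counts through their DMSO libraries alone and so had to differ, and the counts and medians above are read with that limit. In bulk RNA, fewer cells that express a gene and less RNA per cell cannot be told apart. With duplicates, groups that do not overlap were also found for genes that were not called. The share of such genes among all tested genes was not counted, so non-overlap below is a description only.

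**Figure D2:**
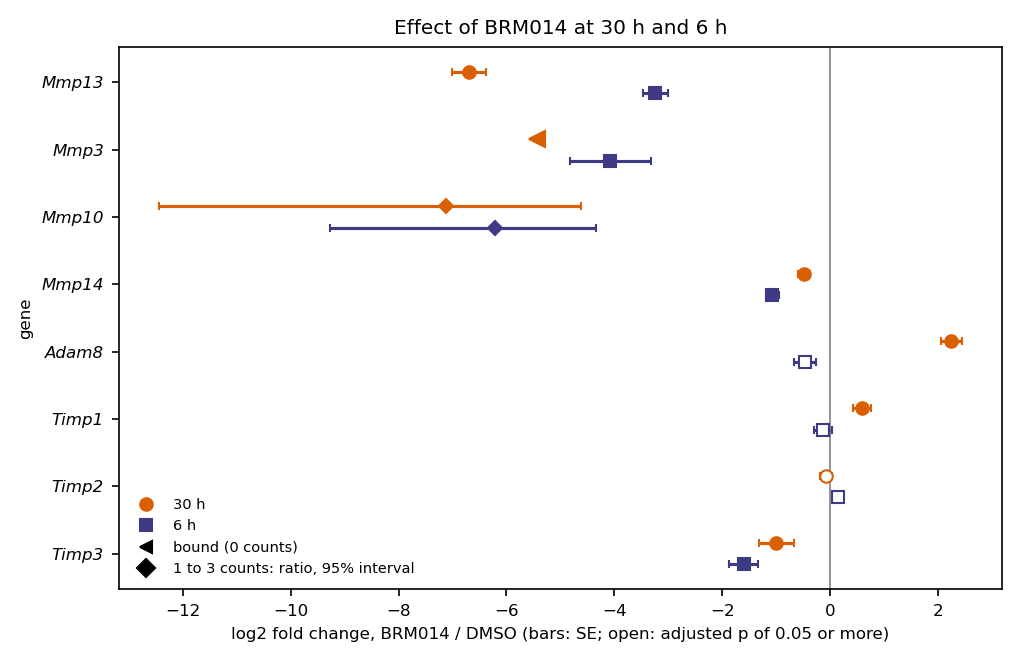
Log2 fold change of BRM014 over DMSO for the 8 tested genes, orange circles for 30 h and blue squares for 6 h, bars for the standard error and open symbols for an adjusted p of 0.05 or more. The triangle is the bound for Mmp3 (0 counts with BRM014), diamonds are the ratio of summed counts of Mmp10 with its 95% counting interval, and Adam8 stands furthest to the right at 2.24 for 30 h.

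Mmp13, a collagenase that cuts fibrillar collagen, was lower with BRM014 at both times and lower still at the later one. At 30 h it had 0.214 and 0.358 CPM in BRM014 libraries (4 and 11 counts), against 25.2 and 38.7 CPM in DMSO libraries (463 and 884 counts). At 6 h it had 3.18 and 2.73 CPM in BRM014 libraries (62 and 64 counts), against 30.6 and 25.2 CPM in DMSO libraries (603 and 484 counts). At each time every BRM014 library was far below every DMSO library. The log2 fold change was -6.70 ± 0.32 (SE, adjusted p = 8.14e-09) at 30 h and -3.24 ± 0.23 (SE, adjusted p = 7.73e-07) at 6 h. The difference between these effects was itself called, at -3.46 ± 0.45 on the log2 scale (SE, adjusted p = 0.000708). Of the 8 genes 3 were called for such a difference, Mmp13 with a lower value at 30 h and Mmp14 and Adam8 with a higher one, against a background of 6.47% of all tested genes (3.89% higher and 2.59% lower).

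Mmp3, stromelysin-1, which cuts proteoglycans, laminin and other MMP precursors, was present at low counts in DMSO and nearly or wholly missing with BRM014. After 30 h of treatment it had 0 and 0 counts in BRM014 libraries, against 71 and 37 counts in DMSO libraries (3.86 and 1.62 CPM). After 6 h of treatment it had 3 and 1 counts in BRM014 libraries, against 40 and 25 counts in DMSO libraries (2.03 and 1.30 CPM). The groups did not overlap at either time. With a floor of 3 counts over the group in place of the 0 counts, Mmp3 was at least 43.1-fold lower with BRM014 at 30 h. This bound takes the DMSO counts as exact and leaves out their spread. The fit itself gave a log2 fold change of -8.86 (adjusted p = 5.76e-05), whose size rests on the 0 counts. At 6 h the log2 fold change was -4.08 ± 0.76 (SE, adjusted p = 0.00187). The effects of both times were not shown to differ (adjusted p = 0.250 for the difference).

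Mmp10, stromelysin-2, a close relative of Mmp3, was likewise low in DMSO and nearly missing with BRM014. After 30 h it had 0 and 1 counts in BRM014 libraries, against 65 and 52 counts in DMSO libraries (3.53 and 2.28 CPM). After 6 h it had 0 and 2 counts in BRM014 libraries, against 92 and 43 counts in DMSO libraries (4.68 and 2.24 CPM). All BRM014 libraries were below all DMSO libraries, and no count remained with BRM014 at either time once replicate 2 was left out. Taken as DMSO over BRM014, the ratio of summed counts per library size was 140 at 30 h (95% interval 24.6 to 5578, adjusted p = 3.13e-05) and 74.5 at 6 h (95% interval 20.2 to 621, adjusted p = 5.86e-05). The intervals are exact and cover counting error only. The longest Mmp3 transcript shared 8.39% of its 50-base stretches with other genes, Mmp10 among them, and that of Mmp10 shared 8.37% with Mmp3, so a small share of the reads of either could have been counted for the other or dropped.

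The genes of Mmp13, Mmp3 and Mmp10 lie in a cluster of 10 MMP genes on chromosome 9, and the other 7 were too low to test. Mmp12 had at most 2 counts and Mmp27 at most 3 counts in a library, and Mmp1a, Mmp1b, Mmp7, Mmp8 and Mmp20 had 0 in every library. The 3 nearest tested protein-coding genes on each side, chosen after the values of the cluster were seen, were not called lower at either time. Of all tested genes, 19.1% were called lower at 30 h and 14.4% at 6 h, and 16.8% were called higher at 30 h. So few flanking genes cannot show whether a change is confined to the cluster. On the side of Mmp13, the dynein heavy chain gene Dync2h1 was higher at 30 h (0.68 ± 0.15, SE, adjusted p = 0.00335) and Dcun1d5 was not called (adjusted p = 0.116 at 30 h and 0.998 at 6 h). The caspase gene Casp4 had 9 and 19 counts in BRM014 libraries and 7 and 11 counts in DMSO libraries at 30 h (adjusted p = 0.653), and 0 and 0 counts in BRM014 libraries and 1 and 0 counts in DMSO libraries at 6 h, too few for a fold. On the other side Birc3, an inhibitor of apoptosis, was higher at 30 h by 2.01 ± 0.25 on the log2 scale (SE, adjusted p = 4.22e-05). Tmem123 and Birc2 were not called at either time, with adjusted p of 0.335 and 0.841 at 30 h and of 0.813 and 0.979 at 6 h. Only the order of the genes was taken from the RefSeq annotation, whose build differs from the authors'.

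**Figure D3:**
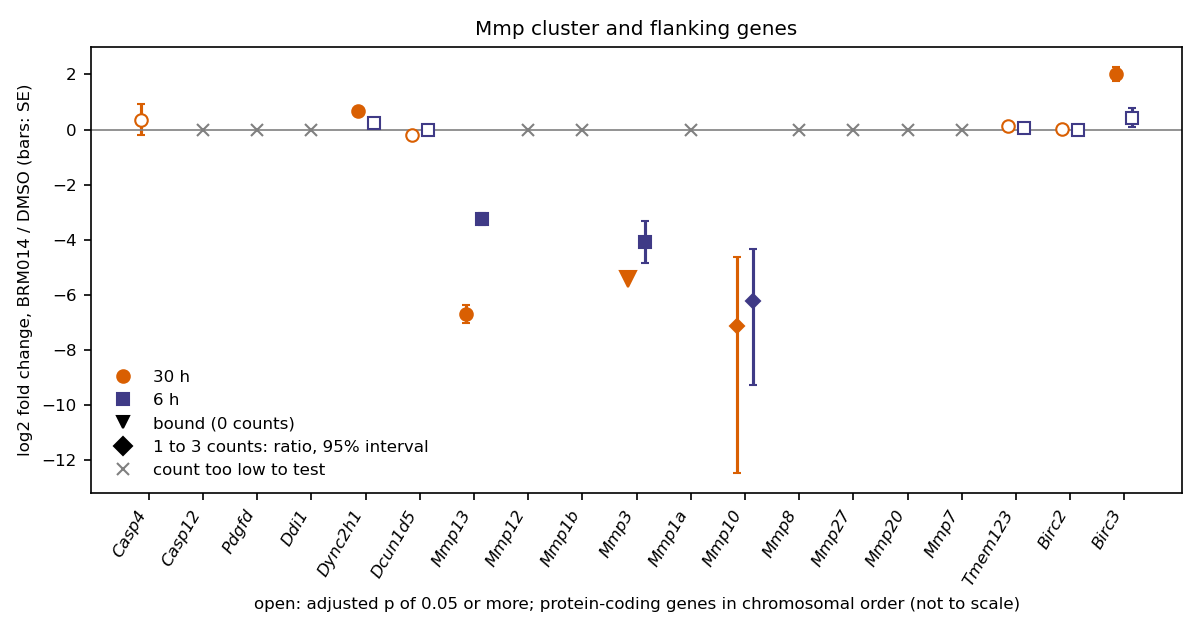
Log2 fold change of BRM014 over DMSO for the chromosome 9 MMP cluster and its flanks in chromosomal order, not to scale, with orange for 30 h, blue for 6 h, bars for the standard error and crosses for genes too low to test. Mmp13, Mmp3 and Mmp10 lie below -3 on this scale (the bound for Mmp3 at 30 h and the ratio with a 95% counting interval for Mmp10), while the tested flanking genes plotted lie at or above -0.20 (Casp4 at 6 h, with 0 counts against 1, is left out).

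Mmp14, a membrane-anchored collagenase that also activates the Mmp2 precursor, was the most abundant protease of the 10 per transcript length and was lower with BRM014 at both times. Values at 30 h were 160 and 154 CPM in BRM014 libraries, against 238 and 201 CPM in DMSO libraries. Values at 6 h were 85.6 and 95.1 CPM in BRM014 libraries, against 206 and 174 CPM in DMSO libraries. The groups did not overlap at either time, and the gap between them was narrower at 30 h. The log2 fold change was -0.48 ± 0.11 (SE, adjusted p = 0.00483) at 30 h and -1.07 ± 0.11 (SE, adjusted p = 1.93e-05) at 6 h. The difference of the effects, 0.59 ± 0.16 (SE, adjusted p = 0.0417), was called, but the call ended in 8 of 16 alternative settings, with adjusted p between 0.00494 and 0.220.

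The gelatinases Mmp2 and Mmp9, which cut denatured collagen and collagen of basement membranes, were hardly detected and were not tested. Mmp9 had 6 and 3 counts in BRM014 libraries and 1 and 1 counts in DMSO libraries at 30 h, and 4 and 1 counts in BRM014 libraries and 0 and 1 counts in DMSO libraries at 6 h. As DMSO over BRM014, its ratio was 0.266 at 30 h (95% interval 0.0280 to 1.29) and 0.221 at 6 h (95% interval 0.00467 to 1.97), and both intervals include 1. Mmp2 had 2 and 1 counts in BRM014 libraries and 1 and 1 counts in DMSO libraries at 30 h, and 0 counts in all 4 libraries of 6 h. A difference in either gelatinase was therefore not detectable at this depth, although the Mmp9 groups did not overlap at 30 h.

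Adam8, a membrane protease that sheds surface proteins, was higher with BRM014 at 30 h and was not called at 6 h. Levels at 30 h were 62.0 and 61.4 CPM in BRM014 libraries, against 16.2 and 10.1 CPM in DMSO libraries. Levels at 6 h were 12.5 and 16.5 CPM in BRM014 libraries, against 18.0 and 22.3 CPM in DMSO libraries. The BRM014 libraries of 30 h stood above all the others. At 6 h the groups did not overlap either, with BRM014 below DMSO. The log2 fold change was 2.24 ± 0.20 (SE, adjusted p = 1.85e-06) at 30 h and -0.47 ± 0.20 (SE, adjusted p = 0.108) at 6 h, which passed in 4 of 17 alternatives. The effects of the times differed by 2.71 ± 0.28 on the log2 scale (SE, adjusted p = 0.000121). Exons of Adam8 overlap those of a gene on the opposite strand, Gm16201, in GENCODE M21, by 46 bases for the exon pair with the largest overlap.

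Among the inhibitors, Timp1 was higher, Timp2 was not called and Timp3 was lower with BRM014 at 30 h. Timp1, a secreted inhibitor of most MMPs, had 102 and 84.6 CPM in BRM014 libraries and 76.1 and 47.6 CPM in DMSO libraries at 30 h. At 6 h it had 105 and 93.6 CPM in BRM014 libraries, against 114 and 103 CPM in DMSO libraries. The groups overlapped at 6 h and not at 30 h, when a DMSO library lay well below the other. The log2 fold change was 0.59 ± 0.17 (SE, adjusted p = 0.0162) at 30 h and -0.13 ± 0.17 (SE, adjusted p = 0.636) at 6 h. The 30 h value was 0.97 without DMSO replicate 1, and the call ended without DMSO replicate 2 (0.29, adjusted p = 0.123) and without BRM014 replicate 1 (0.46, adjusted p = 0.123), and the effects of both times were not shown to differ (adjusted p = 0.1003, passing in 4 of 16 alternatives).

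Timp2, which inhibits MMPs and also takes part in the activation of the Mmp2 precursor by Mmp14, was the most abundant of the 10 per transcript length and was not called at either time. At 30 h it had 1253 and 1035 CPM in BRM014 libraries, against 1139 and 1281 CPM in DMSO libraries. After 6 h of treatment it had 1705 and 1527 CPM in BRM014 libraries, against 1471 and 1470 CPM in DMSO libraries. The groups overlapped at 30 h. At 6 h they were close but did not overlap, with both BRM014 libraries above both DMSO libraries. The log2 fold change was -0.08 with a 95% interval of -0.31 to 0.15 at 30 h (adjusted p = 0.590) and 0.14 with a 95% interval of -0.10 to 0.37 at 6 h (adjusted p = 0.405).

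Timp3, an inhibitor bound to the matrix that also blocks several ADAM proteases, was low and lower still with BRM014. After 30 h of treatment it had 0.749 and 0.815 CPM in BRM014 libraries (14 and 25 counts), against 1.58 and 1.58 CPM in DMSO libraries (29 and 36 counts). After 6 h it had 1.59 and 1.58 CPM in BRM014 libraries (31 and 37 counts), against 4.73 and 4.94 CPM in DMSO libraries (93 and 95 counts). The groups did not overlap at either time. The log2 fold change was -0.996 ± 0.32 (SE, adjusted p = 0.0269) at 30 h and -1.61 ± 0.27 (SE, adjusted p = 0.000664) at 6 h. The 30 h call ended in 6 of 17 alternatives, which are DESeq2 (adjusted p = 0.0782), a fit of the 4 libraries of that time alone (adjusted p = 0.0794) and the omission of any of those 4 libraries (adjusted p = 0.0819 to 0.0898). Exons of Timp3 overlap exons of Syn3 on the opposite strand in GENCODE M21, by 1733 bases for the exon pair with the largest overlap. The strand setting of the counting is not given in the sources used here, so reads from the overlap may have been mixed between both genes or dropped. Syn3 itself had 75 and 76 counts in BRM014 libraries and 77 and 108 counts in DMSO libraries at 30 h, and 53 and 60 counts in BRM014 libraries and 54 and 51 counts in DMSO libraries at 6 h.

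The change between the times was then set out within each treatment. These comparisons use the same libraries as those above, so they are other views of the same values and not further support. With BRM014, 5 of the 8 tested genes were called at 30 h against 6 h, 2 higher and 3 lower, beside 36.5% of all tested genes (19.6% higher and 16.9% lower). With DMSO, 3 of the 8 were called and all were lower, beside 35.2% of all tested genes (18.0% higher and 17.2% lower). With BRM014, Adam8 was 2.08 ± 0.19 higher (SE, adjusted p = 9.79e-06) and Mmp14 was 0.80 ± 0.11 higher (SE, adjusted p = 0.000212) on the log2 scale at 30 h. Mmp13 was lower at 30 h than at 6 h with BRM014, at -3.26 ± 0.40 on that scale (SE, adjusted p = 7.39e-05).

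With DMSO, Mmp13 and Mmp14 were not called between the times (0.20, adjusted p = 0.445, for Mmp13 and 0.21, adjusted p = 0.167, for Mmp14). Timp1 (-0.82 ± 0.17, SE, adjusted p = 0.00295) and Timp3 (-1.61 ± 0.27, SE, adjusted p = 0.000668) were lower at 30 h with DMSO, at -0.51 for Timp1 without DMSO replicate 2 of 30 h. The same comparison with BRM014 gave -0.10 for Timp1 (adjusted p = 0.692) and -1.003 ± 0.32 for Timp3 (SE, adjusted p = 0.0249), and the Timp3 call was lost in 5 of 17 alternatives. Adam8 was lower at 30 h with DMSO (-0.63 ± 0.20, SE, adjusted p = 0.0273), a call that ended without DMSO replicate 2 of 30 h (-0.32, adjusted p = 0.214) or of 6 h (-0.48, adjusted p = 0.170), with library totals as scaling (adjusted p = 0.0585) and with the 4 DMSO libraries alone (adjusted p = 0.0642), and whose value was -1.01 without DMSO replicate 1 of 30 h. Timp2 was lower at 30 h with BRM014 (-0.50 ± 0.11, SE, adjusted p = 0.00317), which ended without BRM014 replicate 1 of 6 h (adjusted p = 0.0555). With DMSO its value was -0.28 ± 0.11 (SE, adjusted p = 0.0568), which passed in 5 of 17 alternatives.

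**Figure D4:**
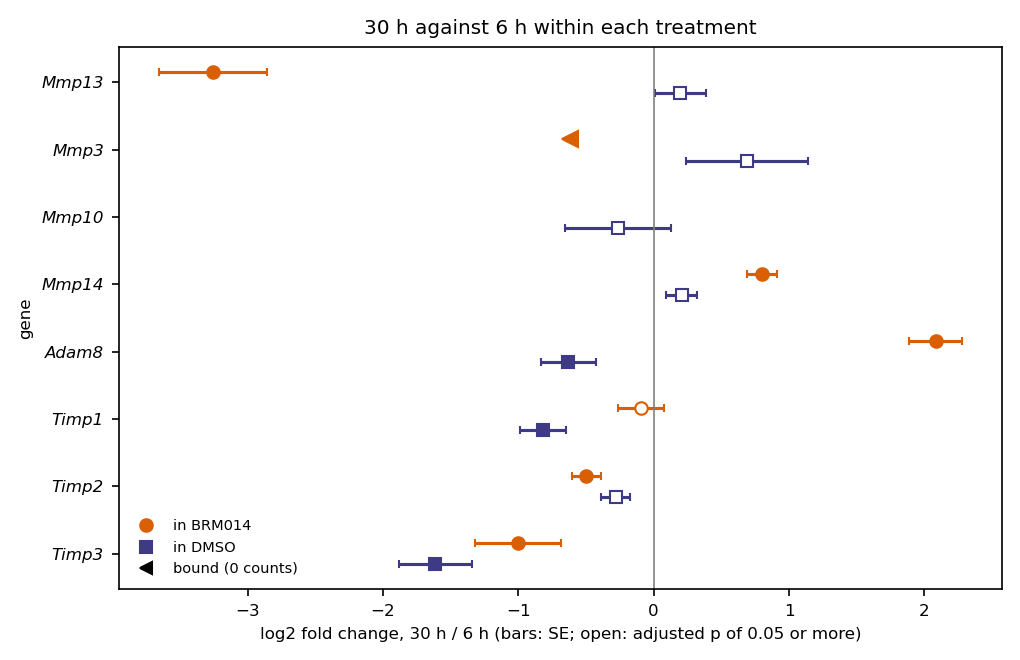
Log2 fold change of 30 h over 6 h within BRM014 (orange circles) and within DMSO (blue squares), with bars for the standard error and open symbols for an adjusted p of 0.05 or more; the triangle is a bound from 0 counts, and Mmp10 with BRM014 is left out for its 1 count against 2. Adam8 (2.08) and Mmp13 (-3.26) with BRM014 stand furthest from 0.

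Levels were compared between genes as CPM per kilobase of the longest protein-coding transcript. In BRM014 cells at 30 h the order was Timp2 (308), Timp1 (105), Mmp14 (48.6), Adam8 (19.8), Timp3 (0.166) and Mmp13 (0.107), with lower means for the others, while in DMSO cells at 30 h it was Timp2 (326), Timp1 (70.0), Mmp14 (67.7), Mmp13 (11.9), Adam8 (4.21), Mmp10 (1.69), Mmp3 (1.52) and Timp3 (0.334). In BRM014 cells at 6 h it was Timp2 (436), Timp1 (113), Mmp14 (27.9), Adam8 (4.66), Mmp13 (1.11) and Timp3 (0.335), with the others lower still, while in DMSO cells at 6 h it was Timp2 (397), Timp1 (123), Mmp14 (58.7), Mmp13 (10.4), Adam8 (6.47), Mmp10 (2.01), Timp3 (1.02) and Mmp3 (0.925). Mmp2 and Mmp9 were lowest in both DMSO groups. Mmp13 stood above Adam8 in both DMSO groups and below it in both BRM014 groups. Timp2 led in all 4 groups. The ranges of the replicates overlapped for Timp1 and Mmp14 in DMSO at 30 h, for Mmp3 and Mmp10 in DMSO at 30 h, for Timp3 and Mmp3 in DMSO at 6 h and for Mmp13 and Mmp9 (0.0659) in BRM014 at 30 h, so the order of those neighbours is not resolved.

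Other genes of the system came from 5 lists chosen with earlier results known. Of 17 other MMP genes 5 were tested, and 1 was called higher and 2 lower at 30 h, as at 6 h, beside 35.9% of all tested genes called at 30 h and 23.8% at 6 h. Mmp19 passed the filter on low counts through its DMSO libraries and Mmp24 through those of 6 h, where each was high. Only 1 BRM014 library reached the cutoff for each, at 6 h for Mmp19 and at 30 h for Mmp24. The count is read with that limit. Mmp19, a secreted MMP, had 5 and 3 counts in BRM014 libraries, against 113 and 81 counts in DMSO libraries at 30 h, and 16 and 9 counts in BRM014 libraries, against 24 and 23 counts in DMSO libraries at 6 h. Its groups did not overlap at either time, with a log2 fold change of -4.82 ± 0.52 (SE, adjusted p = 1.08e-05) at 30 h and -1.03 ± 0.50 (SE, adjusted p = 0.158) at 6 h. Mmp11, stromelysin-3, fell at both times, with -0.68 ± 0.18 (SE, adjusted p = 0.00956) at 30 h and -1.45 ± 0.20 (SE, adjusted p = 0.000187) at 6 h. Its 30 h call ended without DMSO replicate 1 (adjusted p = 0.0611) and without BRM014 replicate 2 (adjusted p = 0.0654). The membrane MMP gene Mmp24 was called at 6 h (-2.87 ± 0.66, SE, adjusted p = 0.00631) and not at 30 h (0.07 ± 0.60, SE, adjusted p = 0.939). Its 6 h call ended without DMSO replicate 2 (-2.50) or BRM014 replicate 1 (-2.57). Mmp15, another membrane MMP gene, named after its values were seen as the one called higher, had 0.90 ± 0.27 (SE, adjusted p = 0.0204) at 30 h and 1.28 ± 0.32 (SE, adjusted p = 0.0101) at 6 h. Its 30 h value without BRM014 replicate 1 was 0.35 (adjusted p = 0.286), and each of its calls ended when any of 3 libraries was left out, the 30 h call also with voom (adjusted p = 0.0551).

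Of 9 other ADAM genes 6 were tested, with 1 called higher and 1 lower at 30 h and 1 called lower at 6 h, shares near or below those of all tested genes (35.9% at 30 h and 23.8% at 6 h). Adam15, a membrane ADAM, fell at both times, with -0.53 ± 0.12 (SE, adjusted p = 0.00436, and -0.35 without BRM014 replicate 1) at 30 h and -0.76 ± 0.12 (SE, adjusted p = 0.000619) at 6 h. Adam9 had 0.28 ± 0.10 (SE, adjusted p = 0.0419) at 30 h, a call that ended in 6 of 17 alternatives, down to 0.16 without DMSO replicate 1. Of 19 ADAMTS genes, which encode secreted relatives that cut proteoglycans and procollagens, 5 were tested, with 1 higher and 1 lower at each time, beside the same 35.9% at 30 h and 23.8% at 6 h. Adamts1 was higher, by 1.17 ± 0.26 (SE, adjusted p = 0.00366) at 30 h and 1.68 ± 0.28 (SE, adjusted p = 0.000732) at 6 h. Adamts15 was lower at 6 h (-2.003 ± 0.29, SE, adjusted p = 0.000227) and Adamts7 at 30 h (-0.82 ± 0.20, SE, adjusted p = 0.00531), the second of which ended without BRM014 replicate 2 (adjusted p = 0.0616). Timp4 and Reck, the other inhibitors, were too low to test.

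Of 9 activators and partners 7 were tested, and 2 were called lower at each time, near the 35.9% at 30 h and 23.8% at 6 h of all tested genes. Furin, a protease that removes the propeptide of membrane MMPs and ADAMs, had 103 and 126 CPM in BRM014 libraries and 231 and 257 CPM in DMSO libraries at 30 h. Values at 6 h were 108 and 126 CPM in BRM014 libraries, against 208 and 208 CPM in DMSO libraries. The groups did not overlap at either time, with a log2 fold change of -1.09 ± 0.12 (SE, adjusted p = 8.83e-06) at 30 h and -0.83 ± 0.11 (SE, adjusted p = 0.000164) at 6 h. Pcsk6, a protease of the same family, had -1.35 ± 0.20 (SE, adjusted p = 0.000181) at 30 h and -0.07 ± 0.20 (SE, adjusted p = 0.835) at 6 h. Rhbdf2, a partner of the sheddase ADAM17, was called lower at 6 h (-0.47 ± 0.12, SE, adjusted p = 0.0104), which ended without DMSO replicate 1 (adjusted p = 0.109) and without BRM014 replicate 1 (adjusted p = 0.122) or 2 (adjusted p = 0.0627).

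**Figure D5:**
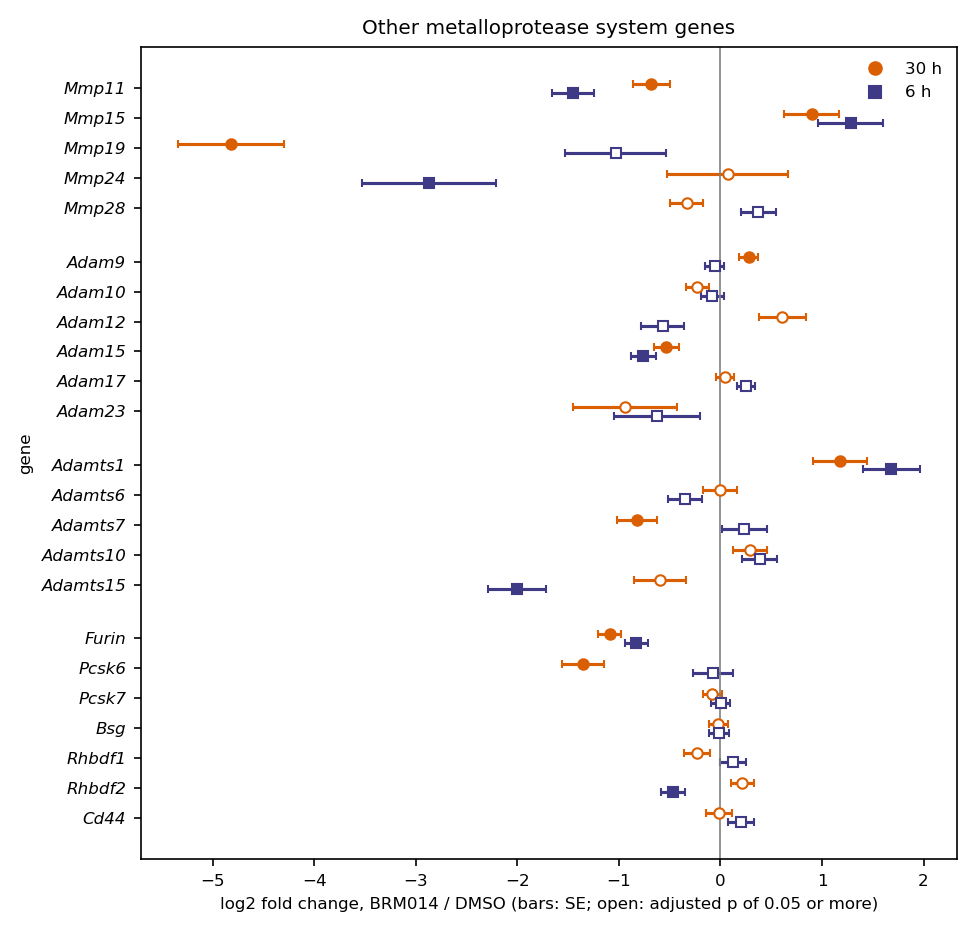
Log2 fold change of BRM014 over DMSO for the tested genes of the other lists (other MMP, ADAM and ADAMTS genes, then activators and partners, from top to bottom), with orange circles for 30 h, blue squares for 6 h, bars for the standard error and open symbols for an adjusted p of 0.05 or more. Mmp19 at 30 h lies furthest to the left (-4.82) and Adamts1 at 6 h furthest to the right (1.68).

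The genes whose pattern was most like that of Mmp13 were ranked by Pearson's r of log2 CPM over the 8 libraries among 9756 genes of sufficient level. The libraries fall into 4 groups and share their scaling, so r is a description. The highest were the kinase gene Map3k7 (r = 0.996), the forkhead factor gene Foxo6 (r = 0.995), the glutathione transferase gene Gsta1 (r = 0.994), the surface mucin gene Muc1 (r = 0.991) and Ptprn (r = 0.988). Likeness in r does not mean a like size, since Map3k7 had a log2 fold change of -0.39 at 30 h and -0.19 at 6 h while Muc1 had -3.90 at 30 h and -2.04 at 6 h. Over all 11834 other tested genes, Mmp3 (r = 0.940) ranked 195 and Mmp10 (r = 0.910) ranked 377 in likeness to Mmp13. Timp3 had r = 0.769, Mmp14 0.473, Timp2 0.262, Timp1 -0.308 and Adam8 -0.790.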

How the data were processed

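RNA-seq libraries (stranded total RNA kit, single reads of 50 bases, per the labels' protocols) were analysed as the authors' deposited table of raw counts per gene. The submitters' processing notes name the genome build mm9 and the tools Subread, SAMtools 0.1.19 and featureCounts. Annotation and strand setting are not given in the sources used here. Total counts were 17859693 to 29955366 per library. The 10 genes and the lists were chosen with earlier results of these data known. Named beyond the 10 are up to 3 called genes of each list with the smallest p, the 5 genes most like Mmp13 by r, and Smarca4 and Smarca2. Markers were named from their lists, and Mmp15, Adam12, Syn3 and the chromosome 9 cluster and flanking genes were chosen with their values in view. Counts were fitted with edgeR 4.0.16 in R 4.3.3 (filterByExpr with a minimum count of 10, TMM factors of 0.935 to 1.05, glmQLFit and glmQLFTest, 2-sided, 4 group means over all 8 libraries, 4 residual degrees of freedom, Benjamini-Hochberg over 11835 genes). CPM uses TMM library sizes. The SE is the absolute log2 fold change divided by the square root of F. A floor is 3 counts over a group. Counts were simulated for the 6 h comparison (11835 genes). They were drawn from the kind of count model that the fit assumes, with the spread estimated from these data. Recovery was thus favoured, and outlying libraries and the filter on low counts were not covered. Of 100 genes changed by log2 1, 93% were recovered, and of 100 changed by log2 2, 99%, with 9 false calls among the unchanged genes. The changed genes had a mean of at least 2 CPM, so recovery at lower counts, as for Mmp3 and Mmp10, was not measured. Promoters come from RefSeq (GRCm38.p6) and transcript lengths from GENCODE M21. Alternatives were other scalings, filters and designs, DESeq2 1.42.0, limma 3.58.1 (voom), a replicate block, and leaving out each library.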

Additional observations from a re-analysis of the deposited data

Results flagged for a closer look

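The test of the difference itself was read for the 10 genes, the other lists, the markers and the flanking genes named above. For 12 of them the effect of BRM014 at 30 h differed from that at 6 h. Values are the 30 h effect minus the 6 h effect on the log2 scale. Tested were 8 of the 10 genes, 5 other MMP, 6 other ADAM and 5 ADAMTS genes, and 7 activators and partners. Also tested were 4 epithelial, 2 fibroblast and 1 leukocyte markers, and 3 flanking genes on each side. Of all tested genes, 6.47% were called for such a difference (3.89% higher and 2.59% lower). The genes and lists were chosen with results known, so the 12 are a description only. The differences were 2.71 for Adam8 (adjusted p = 0.000121), -3.46 for Mmp13 (adjusted p = 0.000708), -3.79 for Mmp19 (adjusted p = 0.0112) and -1.28 for Pcsk6 (adjusted p = 0.0157). They were 0.68 for Rhbdf2 (adjusted p = 0.0243), 0.59 for Mmp14 (adjusted p = 0.0417), 1.41 for Adamts15 (adjusted p = 0.0469) and -1.06 for Adamts7 (adjusted p = 0.0490). Adam12, a membrane ADAM, had 1.18 (adjusted p = 0.0398), the flanking gene Birc3 had 1.58 (adjusted p = 0.0450), and the keratin markers Krt8 and Krt18 had 0.78 (adjusted p = 0.00518) and 0.70 (adjusted p = 0.0129). The calls of Adam8 and Mmp13 held in all 16 alternatives run for them. That of Mmp19 ended without BRM014 replicate 1 of 6 h (adjusted p = 0.1011) and without BRM014 replicate 2 of 30 h (adjusted p = 0.0851). The others held in 12 of 16 alternatives for Pcsk6 (adjusted p up to 0.0902), 11 for Rhbdf2 (up to 0.143), 8 for Mmp14 (up to 0.220), 8 for Adamts7 (up to 0.197), 6 for Adamts15 (up to 0.191), 8 for Adam12 (up to 0.177), 6 for Birc3 (up to 0.2101), 15 for Krt8 (up to 0.0638) and 12 for Krt18 (up to 0.110), and most of the losses came from leaving out a library.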

How the results depend on the processing

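The calls of Mmp13, Mmp3, Mmp10 and Mmp14 at both times, of Timp3 at 6 h and of Adam8 at 30 h held in all 17 alternatives run for them, with adjusted p up to 0.0454 for Mmp14 at 30 h. Mmp3 and Mmp10 passed the filter on low counts through their DMSO libraries alone, so their held calls are not further support. Over the 8 tested genes of the 10, 623 recomputed values kept direction and side of the threshold, 14 newly passed it, 26 lost it and 9 changed sign. All 9 were from leaving out a library, and none was a call. Over the omissions, Timp2 at 30 h ranged from -0.22 to 0.0497, the Mmp10 difference of effects from -2.83 to 2.40, Timp1 over time with BRM014 from -0.23 to 0.0327 and Mmp10 over time with BRM014 from -3.09 to 2.15. Over time with DMSO, Mmp3 ranged from -0.0497 to 1.21, Mmp10 from -0.71 to 0.36 and Mmp13 from -0.15 to 0.46. Genes called across the table ranged from 1422 to 3142 at 6 h, from 329 to 925 for the difference, from 2363 to 4197 over time with DMSO and from 2248 to 4658 over time with BRM014, and the called among the 8 over time with BRM014 from 3 to 5, all with fewer samples in the fit. The difference was called for 766 genes, for 1309 without a filter (cause not tested) and for 1237 with the replicate number as a block. The numbers were not shown to pair libraries (deviations of same-numbered libraries correlated at 0.0110 to 0.201), so the block is only an alternative. Under it the Timp1 difference (0.74, adjusted p = 0.00622) and Timp2 over time with DMSO (adjusted p = 0.0336) passed. No other call among the 8 tested genes changed with the block. Scaling by library totals gave 54.9% of calls higher at 6 h, against 39.3%, and 65.9% over time with DMSO, against 51.2%; upper-quartile scaling gave 61.6% there. Depth limits Mmp2, Mmp9 and, with BRM014, Mmp3 and Mmp10.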
